A study of Mus musculus with 24 samples.

Results

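Type 2 conventional dendritic cells (cDC2) were sorted from spleens of mice in which Cre recombinase switches on an added copy of Zeb2, and were set against cDC2 of mice without Cre. They are 6 of the 24 libraries of the series, chosen by their titles: 4 libraries named cDC2 TG CRE+ and 2 named cDC2 TG CRE-. Per the labels, the CRE+ mice were CD11cCRExR26-Zeb2Tg/Tg and the CRE- mice R26-Zeb2Tg/Tg, all C57Bl/6, 6 to 12 weeks old and at steady state. All 6 libraries thus carry the Zeb2 transgene on both copies of the Rosa26 locus, and the transgene is silent until Cre acts. The CRE+ mice alone carry CD11c-driven Cre, so an effect of Cre or of the inserted Cre construct cannot be told apart from one of the Zeb2 transgene. CD11c is the protein of Itgax, and its sequences drive Cre in dendritic cells and, more weakly, in some other blood cells. Values are also set beside those of cDC1 of the same line (4 CRE+ and 2 CRE- libraries) and of cDC2 with a Zeb2 deletion (CD11cCRExZeb2fl/fl, 4 libraries, against Zeb2fl/fl, 2 libraries), which share no library with the 6.

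The series title asks how Zeb2 acts on dendritic cell development through repression of Id2. Zeb2 is a zinc-finger transcription factor that binds E-box motifs, recruits corepressors, and is best known for silencing epithelial genes such as E-cadherin when cells lose their junctions. Among dendritic cells it is naturally abundant in cDC2, which prime CD4 T cells, and scarce in cDC1, which show dead-cell antigens to CD8 T cells. Id2 blocks E protein transcription factors and is needed for cDC1, so the question for cDC2 is what more Zeb2 does in a cell that already makes it.

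The 6 libraries held 23355617 to 26436889 counts over genes, within the 21972763 to 36094786 of all 24, and 13962 to 14219 genes had at least 1 count. All 7 pairs of replicates differed by more than sampling noise, but unevenly. CRE+ libraries 1 and 2 differed by a chi-square value of 10.11 per gene and CRE+ libraries 3 and 4 by 16.67, whereas the other CRE+ pairs differed by 32.32 to 40.72 and the CRE- pair by 26.29. The CRE+ group therefore holds a close pair 1 and 2 and a close pair 3 and 4. On the first principal component of the 6 libraries, with 26.4% of the variance, CRE+ libraries 1 to 4 lay at -7.07, 3.93, -21.8 and -34.4, and CRE- libraries 1 and 2 at 28.3 and 31.0.

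Zeb2 itself (chromosome 2, 44983512 to 45117442 in mm10) was modestly higher with Cre. It stood at 151, 152, 148 and 159 CPM in CRE+ libraries, against 104 and 104 CPM in CRE- libraries, in the order of replicates 1 to 4 and 1 to 2 used throughout. CPM are counts scaled to a common library size with TMM factors. Every CRE+ library was above both CRE- libraries, with means of 153 ± 4.72 (SD, n = 4) and 104 ± 0.31 CPM (SD, n = 2), a ratio of 1.47. In an exact two-sided permutation test p was 0.0667, the smallest value that 15 assignments of 4 and 2 libraries allow. Across all genes the difference did not pass the quasi-likelihood test of edgeR (p-values adjusted after Benjamini and Hochberg) in the model of 24 libraries (log2 fold change 0.56, SE 0.29, adjusted p = 0.618), but did in a model of the 6 libraries alone (0.55, adjusted p = 0.0254). The cDC2 controls of the deletion line, at 176 and 132 CPM, spanned the CRE+ values. Reads of the transgene and of the native gene cannot be separated in these counts.

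In cDC1 the same transgene raised Zeb2 by 3.96 on the log2 scale, to 44.3, 45.0, 46.3 and 41.4 CPM in CRE+ libraries, against 3.25 and 2.36 CPM in CRE- libraries. The cDC2 effect was smaller than the cDC1 effect by 3.40 on the log2 scale (adjusted p = 0.000125, edgeR).

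Id2 (chromosome 12, 25093799 to 25096092 in mm10), the gene of the series title, did not pass the test in cDC2. It stood at 321, 260.1, 346 and 356 CPM in CRE+ libraries, against 418 and 331 CPM in CRE- libraries, and the groups overlapped. Its log2 difference by edgeR was -0.22 (SE 0.15, adjusted p = 0.744), and the exact permutation p was 0.4. Leaving out 1 library at a time gave a range of -0.40 to -0.06 on the log2 scale. The deletion raised Id2 in cDC2 (log2 1.13, adjusted p = 0.000141), and the 2 effects differed (-1.36, adjusted p = 0.00064).

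Of 13166 genes tested, 43 passed an adjusted p of 0.05, which is 0.327% of all tested. Of these, 15 were higher in CRE+ cDC2 (0.114%) and 28 were lower (0.213%), and 12 of the higher and 17 of the lower genes differed by at least 2-fold. The groups did not overlap in any of the 43, a pattern that 11% of all tested genes showed with CRE+ above and 9.97% with CRE+ below. The same test called 922 genes in cDC1 of the transgene line, 7% of those tested, and 686 in cDC2 with the deletion, 5.21%. At an unadjusted p under 0.05, 1144 genes passed in transgene cDC2. The model of the 6 libraries alone called 55 of 12234 genes (0.45%), 26 higher (0.213%) and 29 lower (0.237%), of which 29 were among the 43.

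**Figure D1:**
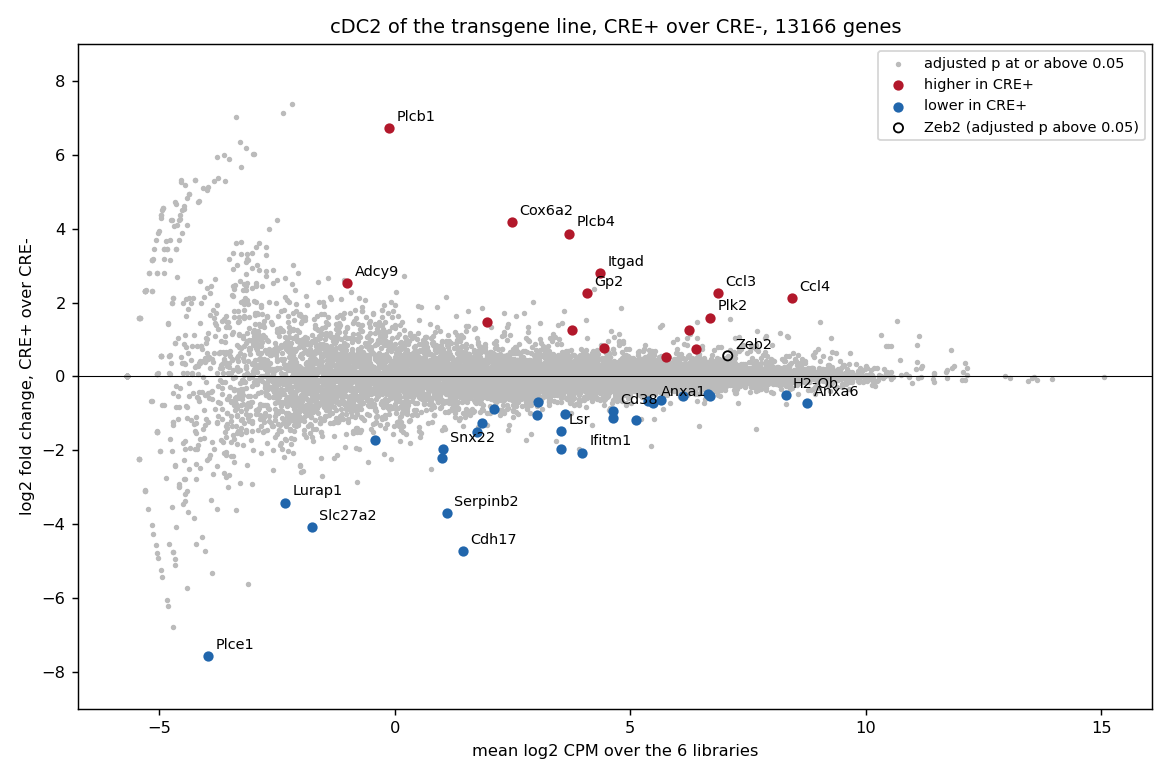
Log2 fold change of CRE+ over CRE- cDC2 of the transgene line (vertical axis) against the mean log2 CPM over the 6 libraries (horizontal axis) for the 13166 genes tested. Coloured points are the 15 higher and 28 lower genes with an adjusted p under 0.05 by edgeR; most genes lie near 0, and Zeb2, circled, is at 0.56.

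Only 2 control libraries stand behind these calls, and they set how many hold. Without CRE- library 1 there were 21 calls and without CRE- library 2 there were 18, with 17 and 14 of the 43 among them. Calls kept without each control in turn numbered 10, of which 9 also passed every other setting tried: Plcb1, Plcb4, Itgad and Cox6a2 among the higher genes and Cdh17, Serpinb2, Lsr, Ifitm1 and Snx22 among the lower. The 10th, Anxa6, was lost only when a change of at least 1.5-fold was required. With CRE+ libraries 3 and 4 as the only CRE+ libraries 15 of the 43 calls were lost, Hdc and Stip1 among them, and with CRE+ libraries 1 and 2 alone 23 were lost. Plp2, Prpf18, Prss57, Ccl4, Galnt7, Ppm1m, Plk2, Sema4f, Gm8221 and Hilpda were lost with libraries 1 and 2 alone and kept with 3 and 4 alone. With the controls of both lines pooled 15 calls were lost, and the log2 fold changes of Plk2 (0.53), Hilpda (0.56), Adcy9 (1.26), Palld (0.79), Ccl3 (0.94) and Ccl4 (0.90) were well below those against their own controls. The 33 calls outside those 10 were lost without one control or the other, and 22 of them in both of these fits. Genes with a mean log2 CPM under 2 are named here after their values were seen, among them Plcb1, Serpinb2, Plce1, Slc27a2, Lurap1, Hdc, Prss57, Sema4f, Dusp28, Adcy9 and Palld, as are Prpf18 and Ppm1m.

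Cdh17 and Lsr were among the lower genes that passed every setting. Cdh17, a cadherin of intestinal epithelium that lacks the usual catenin-binding tail, stood at 1.28, 1.05, 0.332 and 1.21 CPM in CRE+ libraries, against 28.4 and 23.5 CPM in CRE- libraries. Each CRE+ library was far below both controls, a 26.8-fold lower mean (log2 fold change -4.72, SE 0.49, adjusted p = 4.14e-06). Lsr, a receptor for lipoproteins that also marks tricellular junctions of epithelia, stood at 7.57, 7.97, 8.50 and 8.76 CPM in CRE+ libraries, against 25.4 and 20.4 CPM in CRE- libraries. The 4 CRE+ values lay within a narrow band, 2.79-fold below the control mean (log2 fold change -1.48, SE 0.14, adjusted p = 2.33e-06). Sema4f, a transmembrane semaphorin, stood at 3.47, 3.05, 0.8293 and 3.06 CPM in CRE+ libraries, against 5.34 and 9.62 CPM in CRE- libraries (log2 -1.51, adjusted p = 0.0273); CRE+ library 3 lay far below the other CRE+ libraries, and the call was lost without CRE- library 2.

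The promoters of the called genes, where at hand, were searched for the E-box CACCTG, read on the other strand as CAGGTG. It is the motif ZEB proteins are known to bind. RefSeq windows of 300 bases (GRCm38.p6, 250 bases before to 50 after a start) were at hand for 22 of the 28 lower genes, and 8 of these (36.4%) held at least 1 match. Among all tested genes with a window, 20.9% did (2097 of 10057), and among the higher genes 1 of 11 (9.09%), Plcb4. Of the genes called lower with the transgene and higher with the Zeb2 deletion, 4 of 14 with a window (28.6%) held a match. Of the lower genes that passed every setting, only Lsr held a match. The windows of Serpinb2, Ifitm1 and Snx22 held none, and no window was at hand for Cdh17. The 4 windows below are printed because they belong to lower genes with a match and show its number and place. The other lower genes with a match were Erlin1, Ppm1m, Rassf7 and Tmem154. Capitals mark the motif.
Lsr: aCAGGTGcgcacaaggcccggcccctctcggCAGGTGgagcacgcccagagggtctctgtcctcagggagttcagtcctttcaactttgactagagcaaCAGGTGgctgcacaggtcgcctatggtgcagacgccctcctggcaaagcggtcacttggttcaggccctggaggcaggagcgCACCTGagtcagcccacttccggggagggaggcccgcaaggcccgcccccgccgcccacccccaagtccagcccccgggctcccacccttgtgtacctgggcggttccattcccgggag
Sema4f: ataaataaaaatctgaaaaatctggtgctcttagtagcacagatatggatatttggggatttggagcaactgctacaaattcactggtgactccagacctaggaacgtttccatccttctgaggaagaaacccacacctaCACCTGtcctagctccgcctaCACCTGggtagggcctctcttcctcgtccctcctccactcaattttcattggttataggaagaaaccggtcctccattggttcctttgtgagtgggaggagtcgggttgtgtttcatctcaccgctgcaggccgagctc
Slc27a2: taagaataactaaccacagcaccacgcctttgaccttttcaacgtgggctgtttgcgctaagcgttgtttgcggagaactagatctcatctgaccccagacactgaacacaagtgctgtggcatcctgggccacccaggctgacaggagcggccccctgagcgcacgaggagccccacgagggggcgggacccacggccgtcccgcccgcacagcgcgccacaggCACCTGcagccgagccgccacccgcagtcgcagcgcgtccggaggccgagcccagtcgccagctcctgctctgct
Gpr4: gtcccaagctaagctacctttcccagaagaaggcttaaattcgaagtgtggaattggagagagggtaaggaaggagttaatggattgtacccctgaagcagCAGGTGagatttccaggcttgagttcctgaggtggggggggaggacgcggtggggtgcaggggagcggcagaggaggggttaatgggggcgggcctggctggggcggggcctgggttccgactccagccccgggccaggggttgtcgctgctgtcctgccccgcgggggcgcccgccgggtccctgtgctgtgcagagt
The Lsr window (chr7:30973420-30973719, minus strand) held 4 matches, at positions -249, -219, -151 and -69 from the start. Only 6 of 12737 windows of tested genes (0.0471%) held 4 or more. The Sema4f window (chr6:82939720-82940019, minus strand) held 2, at -110 and -89, and 2.38% of windows held 2 or more. Slc27a2 (chr2:126552774-126553073, plus strand) held 1 at -25 and Gpr4 (chr7:19212288-19212587, plus strand) 1 at -149. Neither the Id2 window nor any Zeb2 window held a match. A match shows only that these letters lie in the window, and binding was not measured.

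Serpinb2, also known as plasminogen activator inhibitor 2, stood at 0.188, 1.43, 1.45 and 1.13 CPM in CRE+ libraries, against 14.7 and 12.7 CPM in CRE- libraries. It fell 13.04-fold (log2 fold change -3.71, SE 0.45, adjusted p = 5.5e-05), with CRE+ library 1 the lowest. Slc27a2, an acyl-CoA synthetase that takes up fatty acids, stood at 0.0753, 0.188, 0.29 and 0 CPM in CRE+ libraries, against 2.73 and 2.01 CPM in CRE- libraries (log2 -4.07, adjusted p = 0.0214), from 14 counts in all over the CRE+ libraries. Hdc, the enzyme that makes histamine, stood at 1.09, 1.05, 1.82 and 0.868 CPM in CRE+ libraries, against 5.75 and 5.46 CPM in CRE- libraries (log2 -2.21, adjusted p = 0.00629). Pglyrp2, an amidase that cuts bacterial peptidoglycan, stood at 6.74, 8.24, 6.76 and 7.81 CPM in CRE+ libraries, against 27.7 and 29.6 CPM in CRE- libraries (log2 -1.95, adjusted p = 0.013), and Prss57, a serine protease of neutrophil granules, at 0.716, 0.602, 0.581 and 0.189 CPM in CRE+ libraries, against 1.42 and 2.01 CPM in CRE- libraries (log2 -1.71, adjusted p = 0.0144). CRE+ and CRE- libraries were apart in each of these, but the Slc27a2, Hdc and Pglyrp2 calls were lost when either control was left out and the Prss57 call without CRE- library 2.

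Snx22, a sorting nexin of the endosomal system, stood at 0.904, 1.66, 1.29 and 1.32 CPM in CRE+ libraries, against 4.15 and 5.99 CPM in CRE- libraries (log2 fold change -1.97, SE 0.20, adjusted p = 3.76e-06). Anxa6, an annexin that binds membranes in the presence of calcium, was the most abundant called gene to fall at 346, 375, 361 and 373 CPM in CRE+ libraries, against 600.0 and 600.5 CPM in CRE- libraries. The spread within each group was small beside the 1.65-fold difference (log2 fold change -0.72, SE 0.08, adjusted p = 4.14e-06). Another annexin, Anxa1, stood at 38.2, 41.5, 35.7 and 37.0 CPM in CRE+ libraries, against 66.6 and 58.6 CPM in CRE- libraries (log2 -0.72, adjusted p = 0.00141; lost without CRE- library 1). Ifitm1, an interferon-inducible membrane protein that restricts viral entry, stood at 13.9, 7.33, 12.6 and 6.61 CPM in CRE+ libraries, against 46.0 and 38.7 CPM in CRE- libraries (log2 fold change -2.07, SE 0.29, adjusted p = 0.000382).

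Cd38, an enzyme of the cell surface that consumes NAD, stood at 19.8, 20.5, 22.4 and 17.9 CPM in CRE+ libraries, against 32.5 and 44.2 CPM in CRE- libraries (log2 -0.93, adjusted p = 0.006). Gpr4, a proton-sensing receptor, stood at 24.5, 27.4, 34.4 and 21.5 CPM in CRE+ libraries, against 47.5 and 74.1 CPM in CRE- libraries (log2 -1.17, adjusted p = 0.000139), and Gpr82, an orphan receptor, at 19.8, 16.5, 17.8 and 23.03 CPM in CRE+ libraries, against 43.03 and 41.1 CPM in CRE- libraries (log2 -1.12, adjusted p = 0.0221). H2-Ob, a chain of H2-O that restrains peptide loading of MHC class II, stood at 279.6, 272, 298 and 276 CPM in CRE+ libraries, against 380.0 and 419 CPM in CRE- libraries (log2 -0.51, adjusted p = 0.00343). The Cd38, Gpr4 and H2-Ob calls were lost without CRE- library 2, and the Gpr82 call without any 1 of several libraries, controls and CRE+ libraries 1 to 3 among them.

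Plce1, a phospholipase C that responds to Ras, had no count in any CRE+ library and stood at 0.299 and 1.52 CPM in CRE- libraries. The mean of the CRE- libraries was 7.84-fold the mean floor of 0.116 CPM that 3 counts per CRE+ library allow. That ratio leaves out the spread between the controls, so it is no lower bound of the fall. Plce1 rested on 51 control counts, and the call was lost without CRE- library 2 or without any 1 CRE+ library. Lurap1, known as an adaptor of NF-kappaB activation, stood at 0, 0.188, 0.124 and 0.0755 CPM in CRE+ libraries, against 0.747 and 1.41 CPM in CRE- libraries (log2 -3.42, adjusted p = 0.0183; lost without CRE- library 2 or CRE+ library 4). The other lower genes were Tmem154, Phf11c, Dusp28, Rassf7, Tnni2, Tmed8, Plp2, Erlin1, Ppm1m and Prpf18, with log2 fold changes of -1.26 to -0.48. Phf11c belongs to a family of near copies, so its counts are uncertain.

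**Figure D2:**
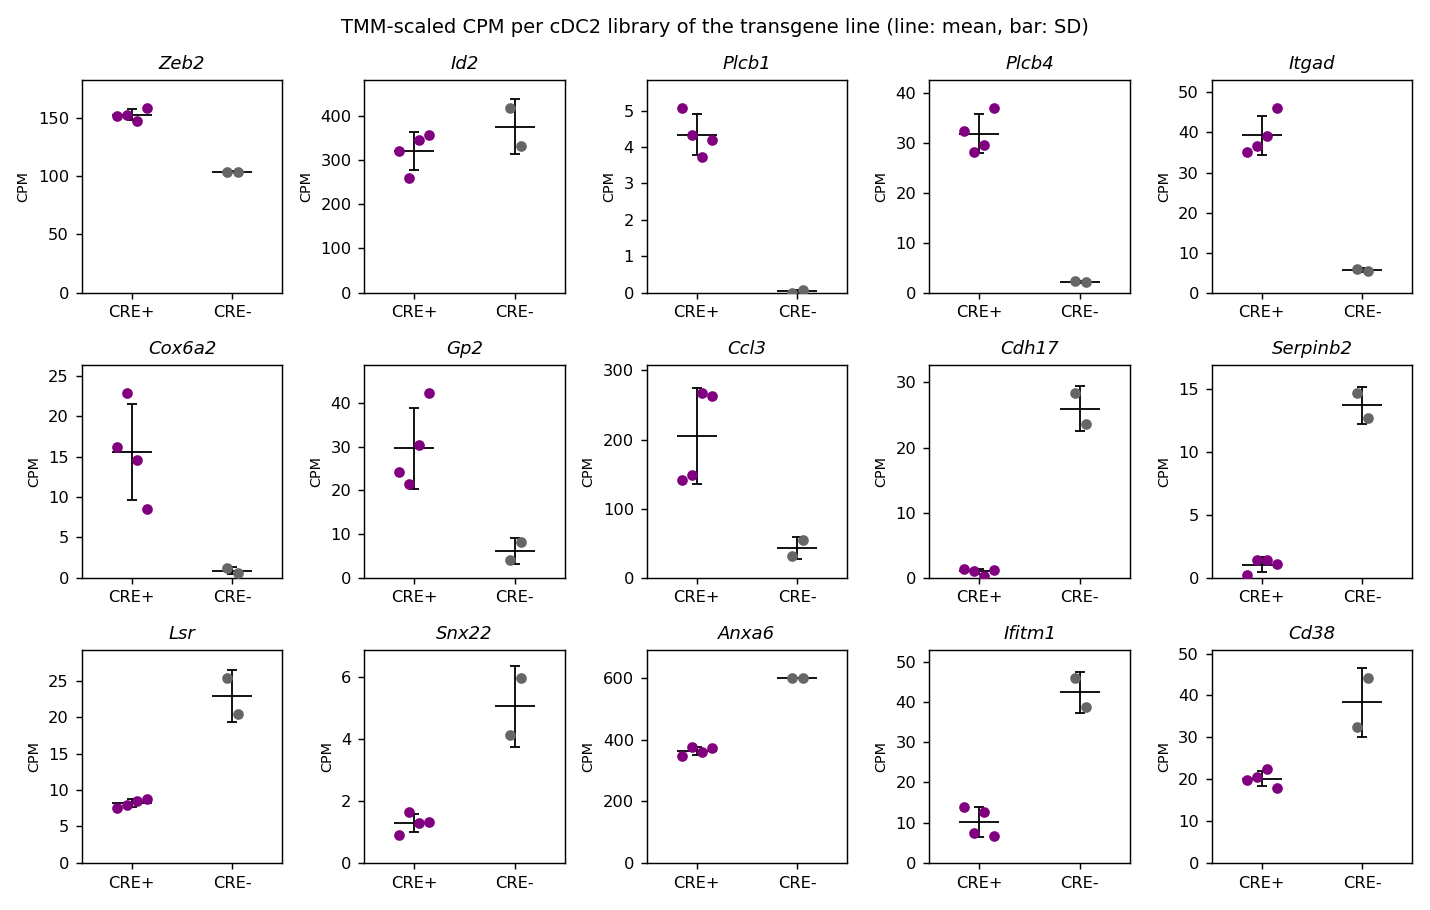
TMM-scaled CPM (vertical axes, from 0) of 15 genes in the cDC2 libraries of the transgene line, with CRE+ left and CRE- right; points are libraries, lines the mean and bars the SD (n = 4 and n = 2). Id2 overlaps between the groups, and Ccl3 was 141 and 149 CPM in CRE+ libraries 1 and 2, below the 268 and 263 CPM of CRE+ libraries 3 and 4.

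Among the 15 genes that rose, the 4 that held in every setting lie in 2 places of the genome. Plcb4 (chromosome 2, 135658603 to 136014602 in GRCm38.p6), a phospholipase C-beta that acts downstream of Gq-coupled receptors, stood at 32.4, 28.2, 29.6 and 37.0 CPM in CRE+ libraries, against 2.32 and 2.04 CPM in CRE- libraries. It rose 14.6-fold (log2 fold change 3.86, SE 0.17, adjusted p = 1.33e-12), the smallest p of all genes tested. Plcb1 (chromosome 2, 134786164 to 135475258), another phospholipase C-beta and its neighbour, stood at 5.08, 4.33, 3.73 and 4.19 CPM in CRE+ libraries, against 0 and 0.0705 CPM in CRE- libraries. It was nearly silent in controls, with 451 counts in the CRE+ libraries against 2 in the CRE- libraries, a ratio of 120 with an exact 95% counting interval of 33 to 993 that covers counting error only.

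Itgad (chromosome 7, 128173933 to 128205504), the integrin alpha chain CD11d, stood at 35.2, 36.7, 39.0 and 46.2 CPM in CRE+ libraries, against 5.98 and 5.32 CPM in CRE- libraries. It rose 6.96-fold (log2 fold change 2.80, SE 0.23, adjusted p = 1.36e-07). Cox6a2 (chromosome 7, 128205435 to 128206366), a muscle form of a cytochrome c oxidase subunit that is also abundant in plasmacytoid dendritic cells, stood at 16.2, 22.9, 14.6 and 8.46 CPM in CRE+ libraries, against 1.16 and 0.564 CPM in CRE- libraries. It rose 18.04-fold (log2 fold change 4.17, SE 0.46, adjusted p = 1.04e-05), with CRE+ library 4 the lowest of its group and still above both controls. The RefSeq spans of Itgad and Cox6a2 share 70 bases, and reads there cannot be assigned without the strand setting of the counting, which is not given in the sources used here.

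Itgad and Cox6a2 are next to Itgax (chromosome 7, 128129526 to 128150657), whose sequences drive the Cre. Itgax itself differed by 0.21 on the log2 scale (adjusted p = 0.495, edgeR), and of the 11 tested genes within 200 kb only Itgad and Cox6a2 passed. Inside the Itgad span lies 4931431B13Rik, with 32 counts in CRE+ libraries and 0 in CRE- libraries, which did not pass (adjusted p = 0.404). Around Plcb1, 6 genes within 1500 kb were tested, and Bmp2, Tmx4, Mkks and Slx4ip did not pass. These neighbours were chosen after the values of the called genes were seen. The 4 genes also rose in cDC2 with the deletion, where Zeb2 is lost but the same CD11c-driven Cre is present: Plcb4 by 3.54, Plcb1 by 9.49, Itgad by 3.37 and Cox6a2 by 5.19 on the log2 scale, with adjusted p of 4.56e-12, 1.72e-08, 3.49e-09 and 6.96e-07 (edgeR). Both CRE+ groups have the Cre in common and differ in whether Zeb2 is added or removed. Where the Cre construct lies in the genome is not given in the sources used here, and its part in these values was not tested.

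**Figure D3:**
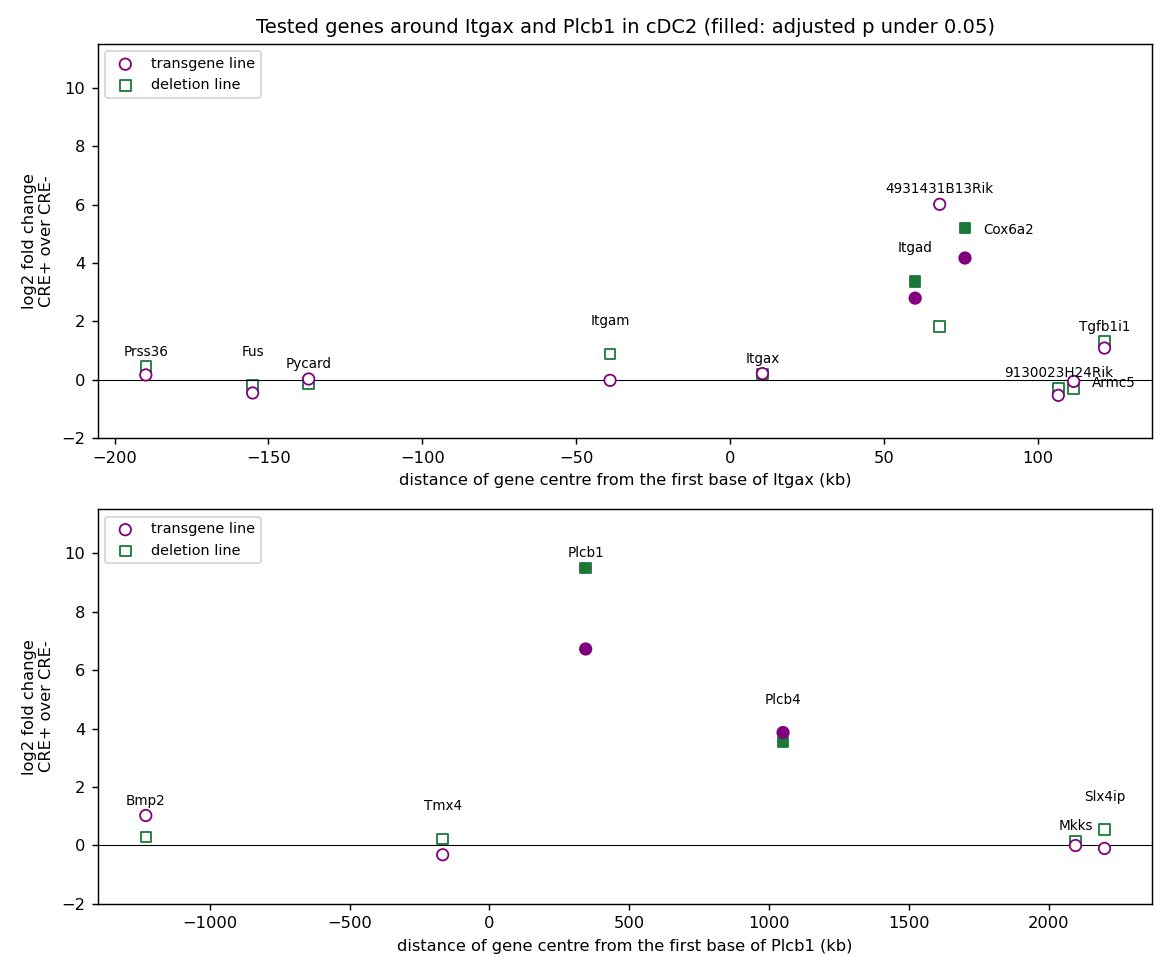
Log2 fold change of CRE+ over CRE- cDC2 (vertical axes) of the tested genes within 200 kb of Itgax (above) and 1500 kb of Plcb1 (below), counted from either end, by distance of the gene's centre from the first base of Itgax or Plcb1 in kb. Circles are the transgene line and squares the deletion line, filled where the adjusted p was under 0.05; Itgad, Cox6a2, Plcb1 and Plcb4 are filled in both lines, and no other gene shown is filled.

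Inflammatory chemokines were another group among the risen genes. Ccl3, which attracts monocytes and T cells to inflamed tissue, stood at 141, 149, 268 and 263 CPM in CRE+ libraries, against 31.9 and 54.6 CPM in CRE- libraries. Ccl4, a related chemokine beside it on chromosome 11, stood at 369, 441, 714 and 823 CPM in CRE+ libraries, against 104 and 165 CPM in CRE- libraries. They rose 4.75-fold (log2 fold change 2.25, SE 0.32, adjusted p = 0.000595) and 4.35-fold (log2 fold change 2.12, SE 0.41, adjusted p = 0.0151), and for both CRE+ libraries 3 and 4 were the highest and CRE+ libraries 1 and 2 lay between them and the controls. Their RefSeq spans share 755 bases, so the counts of the 2 genes may not be independent. Neither call held without CRE- library 1 (adjusted p = 0.0618 for Ccl3 and 0.345 for Ccl4) or with the controls of both lines pooled. Ccl4 was also lost without CRE- library 2 (adjusted p = 0.104), at a minimum change of 1.5-fold (0.102) and with CRE+ libraries 1 and 2 alone (log2 1.59, adjusted p = 0.114), where Ccl3 passed each time. The controls of the deletion line alone had 144 and 197 CPM of Ccl3, which is within the CRE+ range of the transgene line.

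The listed genes known to respond within minutes to stimulation or heat did not pass. Plk2 and Stip1, described below, passed as higher and are not on this list. Of 33 listed early-response and heat-shock genes tested, 0 passed by edgeR (0 in the 6-library model), but 31 had a positive log2 fold change, with a median of 0.47 against 0.01 over all genes tested. CRE+ libraries all lay above both controls for 11 of the 33, against 11% of all tested genes. The mean log2 CPM of the list was 9.10, 9.10, 9.38 and 9.33 in CRE+ libraries, against 8.71 and 8.60 in CRE- libraries. The following members were chosen after their values were seen. Egr2, an early-response transcription factor, stood at 436, 525, 1102 and 1197 CPM in CRE+ libraries, against 158 and 426 CPM in CRE- libraries, and Nr4a1 at 3122, 3274, 5533 and 5399 CPM in CRE+ libraries, against 2686 and 2598 CPM in CRE- libraries. Both were highest in CRE+ libraries 3 and 4, as were Ccl3 and Ccl4. The chaperone Hspa8 stood at 3902, 3410.1, 2192 and 2233 CPM in CRE+ libraries, against 1394 and 1359.5 CPM in CRE- libraries and Hsph1 at 111, 92.6, 44.2 and 50.8 CPM in CRE+ libraries, against 32.7 and 24.2 CPM in CRE- libraries, highest in CRE+ libraries 1 and 2. Summed monocyte markers (8716 and 8863 CPM) and neutrophil markers (336 CPM each, mostly Mmp9) were also highest in CRE+ libraries 3 and 4. In CRE+ libraries 1 and 2 they came to 6319 and 6543 CPM and to 144 and 200 CPM. The monocyte list holds Nr4a1 itself, so its sum is not separate from the Nr4a1 values above. The mean log2 CPM of the monocyte list was 4.34, 5.25, 4.89 and 5.11 in CRE+ libraries, against 5.07 and 5.29 in CRE- libraries. The part of these responses or cells in the chemokine values was not tested.

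Plk2, a stress-inducible polo-like kinase, stood at 135, 101, 186 and 194 CPM in CRE+ libraries, against 54.4 and 47.6 CPM in CRE- libraries (log2 1.59, adjusted p = 0.0237) and was lost without any 1 of CRE- libraries 1 and 2 and CRE+ libraries 3 and 4. With pooled controls it was also lost (log2 0.53, adjusted p = 0.709), and the deletion-line controls, at 163 and 161 CPM, lay within the CRE+ range. Stip1, a co-chaperone that links Hsp70 with Hsp90, stood at 117, 109, 74.7 and 104 CPM in CRE+ libraries, against 65.0 and 56.8 CPM in CRE- libraries (log2 0.73, adjusted p = 0.00728) and was lost when either control was left out. Plk2 was highest in CRE+ libraries 3 and 4, as Egr2 was, and Stip1 in CRE+ libraries 1 and 2, as Hspa8 was. The part of those responses in both was not tested. Gp2, a glycoprotein known from intestinal M cells where it binds bacteria, stood at 24.3, 21.6, 30.4 and 42.4 CPM in CRE+ libraries, against 4.11 and 8.28 CPM in CRE- libraries (log2 2.26, adjusted p = 0.00413; lost without CRE- library 1). Galnt7, an enzyme of O-linked glycosylation, stood at 25.2, 25.2, 26.7 and 26.2 CPM in CRE+ libraries, against 16.4 and 14.0 CPM in CRE- libraries (log2 0.77, adjusted p = 0.0174; lost when either control was left out). The others were Galnt10, Palld, Hilpda, Gm8221 and Adcy9, with log2 fold changes of 0.52 to 2.53, each lost when either control was left out. Adcy9, an adenylyl cyclase, rested on 89 counts in CRE+ libraries and 8 in CRE- libraries.

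Most genes that fell with added Zeb2 rose when Zeb2 was deleted. The deletion comparison shares no library with the transgene comparison, and 51% of all tested genes had a positive log2 fold change in it. Of the 28 genes lower with the transgene, 27 had a positive log2 fold change with the deletion, 19 passed as higher (2.33% of all tested genes did) and 0 passed as lower (2.88% did). Dusp28 was the exception in sign, at -0.19 (adjusted p = 0.705). Of the 15 genes higher with the transgene, 4 also rose with the deletion and 1, Gp2, fell.

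The size of the opposed shifts is seen in single libraries. Cdh17 stood at 97.7, 175, 115 and 124 CPM in CRE+ cDC2 of the deletion line, against 13.5 and 21.3 CPM in their controls (log2 2.88, adjusted p = 0.000764). It fell with added Zeb2 and rose without it, and the controls of the 2 lines spanned 13.5 to 28.4 CPM. Lsr stood at 70.7, 94.4, 87.9 and 81.0 CPM in CRE+ libraries of the deletion line, against 19.9 and 21.6 CPM in CRE- libraries (log2 2.01, adjusted p = 1.72e-08). Anxa6 stood at 931, 955, 976 and 943 CPM in those CRE+ libraries and at 578 and 563 CPM in CRE- libraries (log2 0.74, adjusted p = 3.46e-06).

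Others with opposed calls included Snx22 (log2 -1.97 with the transgene and 2.22 with the deletion), Lurap1 (-3.42 and 3.56), Hdc (-2.21 and 1.92), Ifitm1 (-2.07 and 1.39) and Cd38 (-0.93 and 1.12). Serpinb2 was lower with the transgene and did not pass with the deletion (log2 0.62, adjusted p = 0.464). Gp2, among the risen genes, fell with the deletion, to 0.194, 0.911, 0.271 and 0.348 CPM in CRE+ libraries, against 5.60 and 5.34 CPM in CRE- libraries (log2 -3.66, adjusted p = 6.93e-05). Ccl3 did not pass with the deletion (log2 -0.34, adjusted p = 0.601). The 24 genes called in both comparisons are 55.8% of the transgene calls and 3.5% of the deletion calls.

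**Figure D4:**
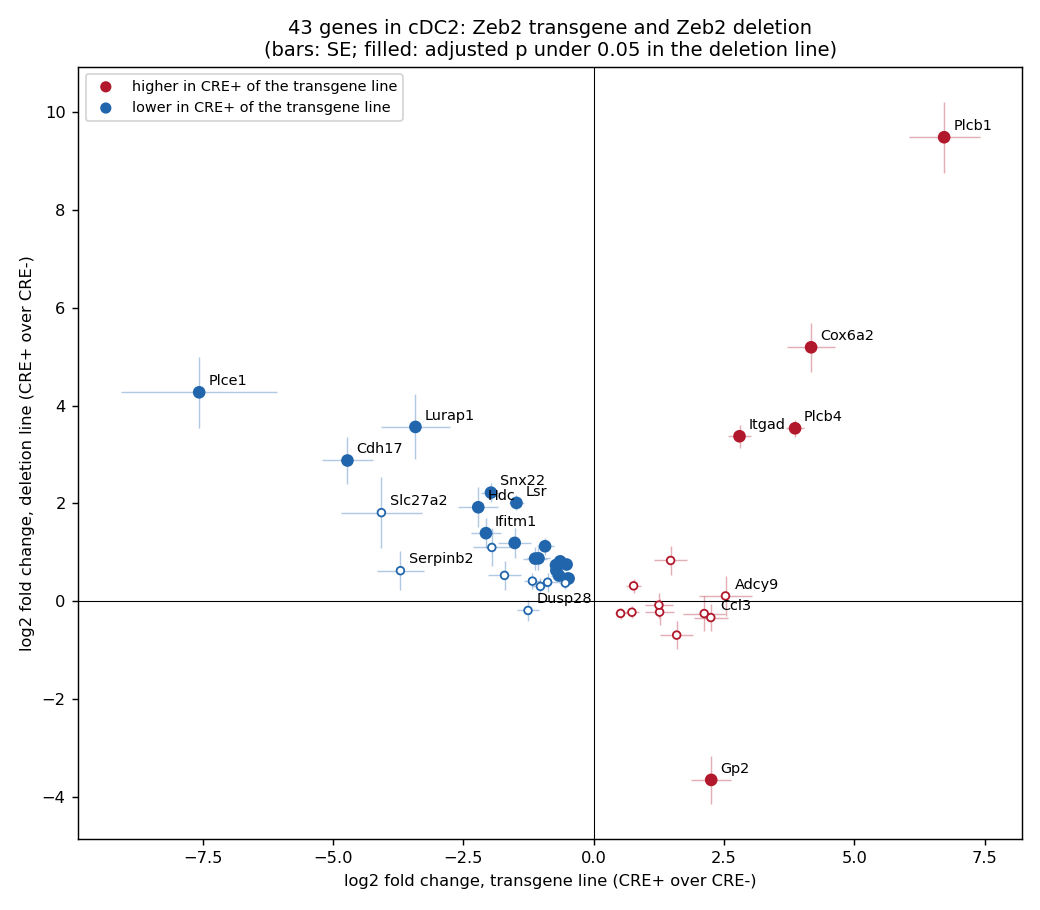
Log2 fold change with the Zeb2 transgene (horizontal axis) and with the Zeb2 deletion (vertical axis) in cDC2 for the 43 genes called with the transgene; bars are SE, and filled points had an adjusted p under 0.05 with the deletion. All lower genes but Dusp28 lie above 0 on the vertical axis, while Plcb1, Cox6a2, Plcb4 and Itgad are positive on both axes.

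A direct test of the transgene effect minus the deletion effect called 585 genes (4.44% of those tested), 298 more positive with the transgene (2.26%) and 287 more negative (2.18%). This test holds the 6 transgene libraries as well and is not independent of the calls above. The genes with the smallest p included Clec9a, a receptor for dead cells known from cDC1, at 13.2, 15.4, 12.9 and 8.72 CPM in CRE+ libraries, against 5.34 and 6.94 CPM in CRE- libraries. It differed between the effects by 3.48 (adjusted p = 3.49e-06), with 1.03 for the transgene (adjusted p = 0.0827) and -2.45 for the deletion. Cd36, a scavenger receptor, differed by 2.63 (adjusted p = 3.93e-06), and stood at 12.4, 11.8, 12.8 and 16.4 CPM in CRE+ libraries, against 7.77 and 6.73 CPM in CRE- libraries. Lyz1, a lysozyme, differed by 2.43, Clec12a by 1.13 and Cd81, a tetraspanin, by 1.47. None of these 3 passed for the transgene alone in the model of 24 libraries with its low-count filter. Without that filter Cd81 did pass (log2 0.59, adjusted p = 0.0332, edgeR). On the other side, Cxcr3, a chemokine receptor, differed by -3.16 and Cst3, the protease inhibitor cystatin C, by -1.25. Cst3 stood at 929, 954, 902 and 963 CPM in CRE+ libraries, against 934 and 967 CPM in CRE- libraries and did not pass for the transgene alone (log2 -0.02, adjusted p = 0.985).

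In cDC1, where the transgene comparison had 922 calls, the cDC2 calls mostly kept their direction. The cDC1 and cDC2 libraries may be paired by replicate number, so the comparisons may not be independent. Of all tested genes 51.9% had a positive log2 fold change in cDC1. Of the 28 lower genes 24 were negative in cDC1 and 14 passed as lower (3.42% of all tested genes did). Of the 15 higher genes 12 were positive and 5 passed as higher (3.58% did). The 19 shared calls are 44.2% of those in cDC2 and 2.06% of those in cDC1. Lsr fell in cDC1 (log2 -2.01, adjusted p = 1.32e-09), as did Anxa6 (log2 -1.04, adjusted p = 3.61e-09), Anxa1 (log2 -0.99, adjusted p = 1.47e-06), H2-Ob (log2 -0.76, adjusted p = 1.99e-06) and Cd38 (log2 -0.79, adjusted p = 0.00245). Plcb1 rose (log2 5.56, adjusted p = 9.69e-05), as did Ccl3 (log2 1.92, adjusted p = 0.000601), Plk2 (log2 1.43, adjusted p = 0.00862), Itgad (log2 1.04, adjusted p = 0.00422) and Plcb4 (log2 0.50, adjusted p = 0.029).

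A test of the difference between the subsets called 264 genes (2.01% of those tested), of which 108 had the more positive effect in cDC2 (0.82%) and 156 the more negative (1.18%). Of the 43 called genes 8 were among them. The difference contains the cDC2 effect that selected the 43 genes, so this count is not independent of those calls. Plcb4 rose by 3.36 more in cDC2 on the log2 scale (adjusted p = 1.59e-09), Itgad by 1.76 and Galnt7 by 1.08. Snx22 differed by -1.58 and Serpinb2 by -2.98.

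Other genes with a small p for this difference passed in cDC1 and not in cDC2. Ddx58, which encodes the viral RNA sensor RIG-I, differed by -5.01 (adjusted p = 9.05e-06). In cDC2 it stood at 77.1, 64.5, 72.4 and 79.5 CPM in CRE+ libraries, against 75.9 and 81.6 CPM in CRE- libraries, with the groups overlapping. Tgm2, a transglutaminase, differed by -4.16, Fcer1g, the Fc receptor gamma chain, by -2.50, the inhibitory receptor gene Cd300a by -2.09 and Sat1 of polyamine breakdown by -1.34. In the other direction were Ltbp2 (3.79), Ttc39a (3.47), Actn1 (2.32), Gclc (1.87) and Prr13 (1.03), which fell in cDC1. None of these 10 passed for the transgene in cDC2, where their log2 fold changes lay between -0.59 and 0.09. An adjusted p above the threshold does not show that they did not differ there.

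No subset marker passed the test in cDC2 by edgeR in the model of 24 libraries. Of 22 listed cDC2 identity genes 0 passed, and the median log2 fold change was 0.19, with 17 positive. In the 6-library model 1 passed as higher and 1 as lower. The colony-stimulating factor receptor Csf1r stood at 777, 797, 749 and 762 CPM in CRE+ libraries, against 568 and 594 CPM in CRE- libraries (adjusted p = 0.422, and 0.0432 in the 6-library model). Dtx1, a Notch pathway gene, was at 134, 147, 174 and 135 CPM in CRE+ libraries, against 356 and 430.3 CPM in CRE- libraries (log2 -1.41, adjusted p = 0.173, and 0.00103 in the 6-library model). It was the only cDC2 identity gene whose CRE+ libraries all lay below both controls, while for 10 of the 22 they all lay above, against 9.97% of all tested genes below and 11% above. Among those 10 were Cd4, at 336, 326, 323 and 389.9 CPM in CRE+ libraries, against 238 and 277 CPM in CRE- libraries (log2 0.42, adjusted p = 0.564), and the lectin gene Cd209a, at 699, 810.2, 697 and 872 CPM in CRE+ libraries, against 533 and 461 CPM in CRE- libraries (log2 0.63, adjusted p = 0.806). Sirpa, a surface receptor that marks cDC2, stood at 1409.8, 1443, 1301 and 1581 CPM in CRE+ libraries, against 1266 and 1373 CPM in CRE- libraries (log2 0.12, adjusted p = 0.973). In cDC1 with the transgene 12 of the 22 rose (3.58% of all tested genes did), and the effect differed between the subsets for 8, each more positive in cDC1 (1.18% of all tested genes).

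Of 20 cDC1 identity genes 0 passed by edgeR in either model, with a median of 0.20 and 13 positive. CRE+ libraries all lay below both controls for 2 of the 20, Tlr3 and Wdfy4, against 9.97% of all tested genes. They lay above both for 6 (11% of all tested genes lay above), among them Clec9a and Irf8. Irf8, the transcription factor of cDC1, had a log2 fold change of 0.70 (adjusted p = 0.132, edgeR). It stood at 136, 182, 102 and 104 CPM in CRE+ libraries, against 71.8 and 89.3 CPM in CRE- libraries. Cd8a varied within the group, at 46.7, 74.0, 38.4 and 9.10 CPM in CRE+ libraries, against 18.9 and 41.6 CPM in CRE- libraries, with CRE+ library 4 the lowest. Xcr1, the chemokine receptor that defines cDC1, was low in all 6 libraries, at 5.73, 5.49, 7.01 and 7.74 CPM in CRE+ libraries, against 3.96 and 4.40 CPM in CRE- libraries. In cDC1 with the transgene 11 of the 20 fell (3.42% of all tested genes did) and 0 rose (3.58% did).

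The 45 gene lists hold 1115 entries found in the files, with some genes on several lists. Only 4 lists held a called gene. These were chemokines (Ccl3 and Ccl4 higher of 19) and plasmacytoid dendritic cell genes (Cox6a2 higher of 19). The others were integrins and adhesion (Itgad higher of 32) and MHC class II (H2-Ob lower of 18). That is 5 calls, against 0.327% of all genes tested. The chemokine list had a median log2 fold change of 0.58, cytokines 0.56 with 0 of 26 passing, and chemokine receptors 0.39 with 0 of 24, against 0.01 over all genes. Interferon-stimulated genes had a median of -0.21, with 0 of 30 passing and CRE+ libraries below both controls in 9 and above both in 2, against 9.97% and 11% of all tested genes. The same list had 16 members higher in cDC1 with the transgene (3.58% of all tested genes), and the effect was more negative in cDC2 for 13 (1.18%).

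Genes of mitosis had a median of 0.18, with 35 of 40 positive and 0 passing. With the deletion 25 of the 40 fell (2.88% of all tested genes did), and the difference between the effects was positive and passed for 16 (2.26%). DNA replication genes had a median of 0.00 with 0 of 39 passing, where 19 fell with the deletion (2.88% of all tested genes did). Ribosomal protein genes (72 tested) and respiratory chain genes (62 tested) had medians of 0.03 and -0.01 with 0 passing. Listed epithelial junction genes, a class that ZEB factors are known to repress, had a median of -0.10 with 0 of 14 passing. This list does not hold Cdh17 or Lsr, which passed as lower. The model of 6 libraries called 12 list members in place of 5.

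**Figure D5:**
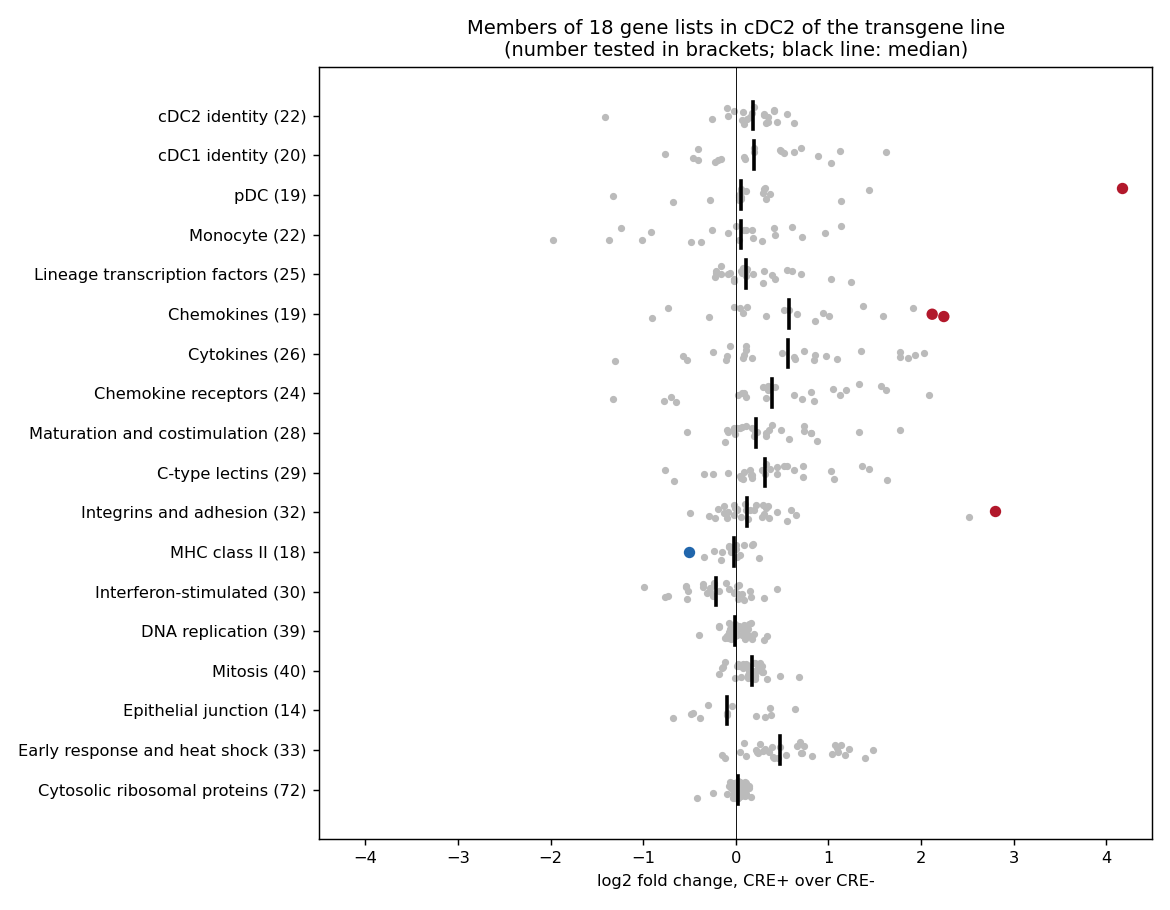
Log2 fold change of CRE+ over CRE- cDC2 (horizontal axis) for the members of 18 gene lists (rows, number tested in brackets); grey points did not pass, red passed as higher and blue as lower, and black lines are medians. The medians of chemokines, cytokines and early-response genes lie to the right of 0, and only Cox6a2, Ccl3, Ccl4, Itgad and H2-Ob are coloured.

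Markers of other cell types were summed over their lists. Monocyte genes, which dendritic cells express in part, came to 6319, 6543, 8716 and 8863 CPM in CRE+ libraries, against 6395 and 5667 CPM in CRE- libraries. This was near the level of the cDC2 identity list (7875 to 9010.3 CPM over the 6 libraries). The early-response gene Nr4a1 is on the monocyte list, makes up a large part of each sum and was also highest in CRE+ libraries 3 and 4. Csf1r and Lyz2 are on the monocyte and cDC2 identity lists, and Csf1r is the monocyte gene that passed in the 6-library model. The monocyte sum is thus no measure of monocytes alone. Plasmacytoid dendritic cell genes came to 767 to 1097 CPM in CRE+ libraries and 842 to 908 CPM in CRE- libraries, with 1 of 19 passing. B cell genes came to 183 to 296 CPM in CRE+ libraries and 226 to 229 CPM in CRE- libraries, T cell genes to 96.0 to 114 and 116 to 129 CPM, and erythroid genes to 11.9 to 29.6 and 29.0 to 33.4 CPM. The T cell sum was lower in every CRE+ library than in both controls, and none of these 3 lists had a passing gene. Natural killer cell genes came to 62.6 to 125 CPM in CRE+ libraries and 75.4 to 76.4 CPM in CRE- libraries, and neutrophil genes to 144 to 336 and 154 to 158 CPM. Red pulp macrophage genes came to 654 to 836 CPM in CRE+ libraries and 551 to 761 CPM in CRE- libraries and platelet genes to 5.65 to 9.67 and 5.18 to 7.55 CPM, with 0 genes passing by edgeR in the natural killer, neutrophil, macrophage, platelet and monocyte lists (1 monocyte gene passed as higher in the 6-library model). The B cell list had a median of 0.10, with 6 of 10 positive. Among single markers, chosen after their values were seen, Ms4a1 of B cells stood at 4.44, 5.64, 3.77 and 19.3 CPM in CRE+ libraries, against 29.7 and 26.5 CPM in CRE- libraries (log2 -1.76, adjusted p = 0.143) and Siglech of plasmacytoid dendritic cells at 14.6, 27.1, 12.9 and 2.68 CPM in CRE+ libraries, against 10.2 and 12.0 CPM in CRE- libraries (log2 0.37, adjusted p = 0.944). Siglech was highest in CRE+ library 2 and lowest in CRE+ library 4, and Cox6a2 had the same highest and lowest libraries among CRE+, though its controls were far lower and those of Siglech were not. The part of such cells in the Cox6a2 values was not tested. In sorted pools, a change in the share of cells and a change in RNA per cell cannot be told apart.

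A further 26 genes passed in the model of the 6 libraries alone. Adamdec1, a secreted metalloprotease of myeloid cells, stood at 27.8, 24.1, 45.2 and 35.1 CPM in CRE+ libraries, against 6.35 and 6.45 CPM in CRE- libraries (log2 2.36, adjusted p = 0.00538, against 0.0917 in the model of 24 libraries), and it fell with the deletion (log2 -2.77, adjusted p = 0.0023). Il12b, a chain of interleukin-12, stood at 18.4, 13.4, 18.2 and 24.8 CPM in CRE+ libraries, against 7.06 and 3.88 CPM in CRE- libraries (adjusted p = 0.0418 and 0.173), and Ptger4, a prostaglandin E2 receptor, at 262, 238, 396 and 305 CPM in CRE+ libraries, against 138 and 151 CPM in CRE- libraries (adjusted p = 0.0485 and 0.0968). Each was clear of the controls in every CRE+ library. Jak2, a kinase of cytokine receptors, stood at 342, 339.5, 344 and 334 CPM in CRE+ libraries, against 464 and 478 CPM in CRE- libraries (adjusted p = 0.0254 and 0.0703), and Pglyrp1, which binds peptidoglycan, at 47.9, 38.6, 42.8 and 40.8 CPM in CRE+ libraries, against 86.8 and 70.9 CPM in CRE- libraries (adjusted p = 0.0147 and 0.0682). The 2 fits differ in how the spread between libraries is estimated, over 2 groups or over 8.

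In controls of both lines, 38 of the 43 genes (88.4%) differed between cDC2 and cDC1, as 53.4% of all tested genes did. Of all tested genes 27.6% were higher in control cDC2 and 25.8% in control cDC1. The cDC2 controls include the 2 CRE- libraries behind the 43 calls, so the following counts are not independent of those calls. Of the 28 lower genes 11 were higher in control cDC2 and 15 in control cDC1. Of the 15 higher genes 5 were higher in control cDC2 and 7 in control cDC1.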

How the data were processed

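RNA of cDC2 sorted from spleen was sequenced. SMART-Seq v4 cDNA was made from 4 ng of RNA, with 15 PCR cycles for the library and 75 bp reads, per the labels' protocols. Per the submitters' processing notes, FastQC 0.11.4, Trimmomatic 0.35, TopHat2 2.1.0, SAMtools 0.1.18 and mm10 were used. The authors deposited integer counts per gene symbol (24421 symbols), not scaled. Not given in the sources used here are the counting program, its annotation and whether it used strand. The 5 closing lines for reads outside genes were left out of totals, among them reads in no feature (12.62 to 14.13% of the gene total in the 6 libraries).

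Groups come from the titles, and nothing in the labels ties replicates to different animals: p-values then reflect only how libraries vary, which may be technical. The tests used edgeR 4.0.16 in R 4.3.3 (filterByExpr over 8 groups with a minimum count of 10 and total of 15, TMM, quasi-likelihood test, 8 group means, 24 libraries), with Benjamini-Hochberg adjustment over all 13166 genes and a threshold of 0.05. Contrasts were CRE+ against CRE- and 2 differences of such effects. Log2 CPM of single libraries used a prior count of 0.5, principal components a prior count of 2. Chi-square values per gene took pairs of counts summing to 20 or more. The floor is 3 counts per library, 0.106 to 0.124 CPM. Alternatives used limma 3.58.1 and DESeq2 1.42.0. Positions and promoters are RefSeq's (GRCm38.p6).

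The members, the 45 lists and the tests were chosen with earlier results of these data known. Genes named were Zeb2 and Id2, the 15 highest and 15 lowest called fold changes at a mean log2 CPM of at least 2 with no overlap between groups, up to 10 per direction called by the 6-library fit alone, up to 4 called per list, up to 6 per direction for the differences, and the 2 identity lists; 1 gene is not reported here, and others are said to be chosen after their values were seen. Replicate numbers may pair cDC1 with cDC2. Deviations from group means of same-numbered libraries correlated at 0.146 to 0.213 in all pairs, over 9290 genes. Libraries of unlike number were not compared, so these values do not show that the numbers pair the subsets. The CRE- pairs give 1 value by construction. Intervals and floors cover counting error only.

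On simulated counts with known changes, the CRE+ against CRE- test recovered 82% of 2-fold and 98% of 4-fold changes over 12912 genes. Changes were placed only in genes above a minimum level in controls of both subsets and both lines. Libraries were drawn independently, without the close pairs seen in the CRE+ group. The shares therefore do not cover genes near the floor or such pairs. The difference between subsets recovered 63 and 91%, the difference from the deletion 58 and 92%.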

Additional observations from a re-analysis of the deposited data

Results flagged for a closer look

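Among 83 genes examined, the 4 CRE+ libraries held 1 far from the others in 6 genes, where chance gives this in about 1 group in 20. The lowest library stood apart for Tmed8 (29.9 CPM, next 37.0, a gap of 0.908 of the range), Sema4f (0.8293 CPM, next 3.05, 0.841), Phf11c (9.19 CPM, next 9.74, 0.837) and Actn1 (27.1 CPM, next 35.4, 0.830). The highest stood apart for Gclc (41.5 CPM, next 35.5, 0.851) and Prpf18 (98.9 CPM, next 88.9, 0.834).

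For 24 named genes the transgene effect differed between cDC2 and cDC1 by edgeR's test of the difference itself, with adjusted p of 0.0421 or less. Some of these genes were named for this difference, and others for their transgene effect in cDC2, which is part of it. Their number is therefore no measure of how often the subsets differed. Values are log2 effect in cDC2 minus log2 effect in cDC1. The effect was more negative in cDC2 for Plce1 (-7.05), Ddx58 (-5.01), Tgm2 (-4.16), Zeb2 (-3.40) and Serpinb2 (-2.98). Fcer1g (-2.50), Cd300a (-2.09), Snx22 (-1.58), Csf1r (-1.46) and Sat1 (-1.34) followed. It was more positive in cDC2 for Ltbp2 (3.79), Ttc39a (3.47), Plcb4 (3.36), Adcy9 (3.11) and Il12b (2.80). Then came Actn1 (2.32), Gclc (1.87), Itgad (1.76), Gm8221 (1.43) and Clec9a (1.38), and last Cxcr3 (1.18), Galnt7 (1.08), Prr13 (1.03) and Cst3 (0.84).

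For 60 named genes the transgene and deletion effects in cDC2 differed by the same kind of test, with adjusted p of 0.0425 or less. The genes were named mostly for their transgene effect, which is part of this difference, and some for the difference itself. Values are log2 transgene effect minus log2 deletion effect. The difference was negative for Plce1 (-11.84), Cdh17 (-7.60), Lurap1 (-6.98), Slc27a2 (-5.88) and Asprv1 (-5.03). Both Plce1 values rest on CRE+ libraries with no count and are no measure of size. Ttc39a (-5.02), Sez6l (-4.65), Serpinb2 (-4.33), Snx22 (-4.19) and Hdc (-4.13) came next. In the middle lay Lsr (-3.49), Ifitm1 (-3.46), Cxcr3 (-3.16), Pglyrp2 (-3.05), Sema4f (-2.71), Prss57 (-2.24), Cd38 (-2.06), Gpr82 (-1.99) and Tmem154 (-1.93). Smaller differences were those of Pglyrp1 (-1.90), Gpr4 (-1.58), Esyt2 (-1.52), Anxa6 (-1.46), Plp2 (-1.46), Tnni2 (-1.43) and Id2 (-1.36). Anxa1 (-1.34), Phf11c (-1.32), Rassf7 (-1.27), Ppm1m (-1.27), Cst3 (-1.25), Tmed8 (-1.19), Anxa2 (-1.12) and Actn1 (-1.11) followed. The smallest were Dusp28 (-1.07), Jak2 (-0.98), H2-Ob (-0.96), Prpf18 (-0.94) and Erlin1 (-0.91).

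The difference was positive for Gp2 (5.91), Adamdec1 (5.13), Clec9a (3.48), Cygb (2.93) and Zeb2 (2.67). Cd36 (2.63), Ccl3 (2.58), Lyz1 (2.43), Adcy9 (2.42), Ccl4 (2.38) and Plk2 (2.29) came next. Gm8221 (1.49), Cd81 (1.47), Hilpda (1.33), Rgl1 (1.32), Csf1r (1.31) and Clec12a (1.13) were lower. The smallest were Fam26f (1.11), Tnfrsf21 (1.04), Stip1 (0.96) and Galnt10 (0.77).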

How the results depend on the processing

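The counts of calls in cDC2 with the transgene, 15 higher and 28 lower, depended on the tool and on the control libraries. DESeq2's test gave 59 higher and 60 lower, limma voom with quality weights 48 and 89, the controls of both lines pooled 32 and 38, the 6 compared libraries alone 26 and 29, no low-count filter 36 and 35, the 12 libraries of the transgene line 13 and 17, and a minimum change of 1.5-fold 6 and 5. In fits added after seeing the data, CRE+ libraries 3 and 4 alone gave 28 and 25, and CRE+ libraries 1 and 2 alone 16 and 16. Leaving out 1 library at a time gave 4 to 17 higher and 11 to 28 lower, the fewest without a CRE- library, where the lone control is assumed to vary like the other groups. DESeq2 size factors and a stricter filter stayed within 1.5 times. Calls on list members, 5 in all, were 12 without the filter and 12 in the 6-library fit, 26 by DESeq2, 24 by voom, 11 with pooled controls, 3 at the 1.5-fold minimum, 11 and 10 with CRE+ libraries 3 and 4 or 1 and 2 alone, and 3 to 8 with 1 library left out.

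The difference between subsets (108 higher, 156 lower) gave 224 and 251 by DESeq2 and 42 to 112 and 96 to 146 with 1 cDC2 transgene library left out. The difference from the deletion (298 higher, 287 lower) gave 471 and 410 by DESeq2, and 130 to 274 and 158 to 252 with 1 such library left out. Zeb2 kept a difference of 0.54 to 0.57 on the log2 scale and Id2 one of -0.40 to -0.06 with 1 library left out. The single reversal was Id2 with pooled controls, at 0.034 (adjusted p = 0.985, edgeR). The cause was not tested.

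CRE+ and CRE- libraries share only replicate numbers (deviations correlated at 0.0265 and 0.175). A replicate block gave 18 higher and 24 lower, and 34 of the 43 calls were kept. Gm8221, Hilpda, Galnt10, Tmem154, Rassf7, Tnni2, Tmed8, Lurap1 and Sema4f were lost. Blocks gave 117 and 157, or 121 and 151 where line, Cre and number pair the subsets, and 298 and 284 for the difference from the deletion. No other named gene changed its call under a block. Over 91 single-gene results, 1226 values kept their side of the threshold and direction, 222 no longer passed, 55 newly passed and 1 reversed. Depth limits genes near the floor: Plce1, Lurap1 and Slc27a2 rest on few counts.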
